A study of Mus musculus with 23 samples.

Results

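Leukaemic granulocyte-macrophage progenitors (L-GMPs) without Cebpa were set against common myeloid progenitors (CMPs) that also lacked it. With the gene deleted on both sides, the comparison shows which genes that are low in CMPs without Cebpa are expressed in a leukaemia that lacks it as well. By the labels it holds 7 of the 23 arrays of the series, 3 of knockout L-GMPs and 4 of knockout CMPs, and every value is a deposited log2 expression level of mouse RNA on an Affymetrix gene array. Such a level can be compared between arrays for 1 gene but not between genes, a log2 difference of 1 is a 2-fold difference, and the deposited values stop at a floor of 3. Signal over background is not given, so where a level lies near the floor the size of a difference may be understated.

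All knockout cells carried the Mx.1-Cre+ C/EBPa f/f genotype, in which an interferon-inducible Cre deletes Cebpa after poly I:C. The controls were Mx.1-Cre- C/EBPa f/f mice given the same 3 injections. Knockout CMPs (4 arrays), control CMPs (4) and control granulocyte-macrophage progenitors (GMPs, 3) came from bone marrow 5 days after poly I:C and had no virus. Knockout L-GMPs descended from stem-cell-enriched knockout cells (Lin-Sca-1+c-kit+, KSLs) infected with the retrovirus MSCV-MLL-AF9-IRES-GFP and transplanted into lethally irradiated congenic recipients with supporting marrow. Those recipients had also received hydrodynamic injections of vectors expressing IL-3 and GM-CSF 2 to 4 months after transplantation. The array of the primary recipient and the 2 arrays of secondary recipients come from 1 leukaemia. Control L-GMPs (2 primary and 2 secondary transplant arrays) carried the same virus with Cebpa intact. The labels mention the cytokine vectors for knockout recipients only, and do not say whether the secondary recipients were injected. Knockout and control L-GMPs may thus differ by that treatment as well as by Cebpa, and the 2 cannot be told apart. GFP-positive CMPs of MLL-AF9 knockout mice (3 arrays), whose disease state the labels do not give, were available as a further reference.

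The knockout L-GMPs and CMPs therefore differ by sort gate, virus, culture, transplantation, cytokine vectors and leukaemia at the same time, and an array batch, if there was one, would also separate them. These cannot be told apart. Neither can fewer cells of a type and less RNA per cell. The p-values measure the spread between arrays. The mice behind the CMP arrays are numbered in the labels but not otherwise described.

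C/EBPα, the protein made from Cebpa, is a leucine zipper transcription factor that normally moves CMPs into the granulocyte and monocyte lineages and switches on granule and receptor genes there. Marrow without it accumulates immature myeloid cells and lacks GMPs and granulocytes. MLL-AF9 fuses the start of a histone methyltransferase to a partner that recruits transcription elongation factors, and keeps HOXA cluster genes active in cells that would otherwise shut them down.

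Cebpa itself was low on all 7 arrays. Its level was 5.15 on the primary and 4.90 and 4.33 on the secondary knockout L-GMP arrays, and 5.51, 5.19, 5.55 and 4.99 on the knockout CMP arrays. Control CMPs lay between 7.19 and 7.83, so no knockout array reached a control array. The difference between knockout L-GMPs and knockout CMPs was -0.52 ± 0.18 (log2 difference ± SE; limma, Benjamini-Hochberg adjusted p = 0.0568). The same difference had adjusted p = 0.0295 without the primary L-GMP array and 0.0333 without knockout CMP array 4. With the replicate number as a block it had 0.0156. Other settings moved it the opposite way, to adjusted p = 0.137 without knockout CMP array 1 and 0.145 without array 3. Leaving out secondary L-GMP array 2 reduced the difference to -0.29, so this result depends on the arrays used.

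The cell types in the labels were read against the surface markers of the sort gates, of which 9 of 11 were measured. Fcgr2b, 1 of the Fc receptors that define the GMP gate, was 8.08, 8.36 and 8.84 in knockout L-GMPs and 5.48 to 5.67 in knockout CMPs, and rose by 2.81 ± 0.29 (adjusted p = 5.24e-06). Fcgr3, the other, stood at 9.51, 9.60 and 9.66 against 7.24 to 8.64 (1.63 ± 0.60, adjusted p = 0.0687). The stem cell factor receptor Kit fell by 1.29 ± 0.33 but remained at 8.24 to 8.38, and Cd34 was level at 9.71 to 10.11 against 9.98 to 10.35 (-0.27 ± 0.18, adjusted p = 0.334). Itgam, the integrin of mature myeloid cells, rose by 2.58 ± 0.25. The call on Kit ended when the 3 L-GMP arrays were averaged into 1 sample (adjusted p = 0.162).

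Over all genes 4137 of 19937 (20.8%) passed limma's test at an adjusted p below 0.05, 1828 higher (9.17%) and 2309 lower (11.6%) in knockout L-GMPs. At least 2-fold were 646 of the higher (3.24% of all genes) and 672 of the lower (3.37%). The arrays of the sides did not overlap for 7904 genes (39.6%; 18.6% higher and 21.1% lower), and the median log2 difference of all genes was 0. In a further fit the 3 L-GMP arrays were averaged into 1 sample, which leaves the leukaemia without a spread of its own. That fit borrows the spread of the other groups, so its adjusted p-values do not measure variation between leukaemias. Adding high Xist, which marks arrays of female mice (3 of 3 L-GMP and 1 of 4 CMP arrays), as a covariate left 2569 genes called. It ended 19 of the 114 calls on named genes, which are listed at the end. The L-GMP arrays correlated with each other at 0.983 to 0.990 across genes, the CMP arrays at 0.992 to 0.995, and arrays of different sides at 0.934 to 0.948. Within the leukaemia 465 genes spanned more than 1 log2 unit over its 3 arrays, against 148 over the 4 CMP arrays.

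Of the 11 primary granule genes of neutrophils measured 5 rose by 3.86 to 5.80, 1 fell and 5 did not pass, with a median difference of 0.78. Over all genes 9.17% rose and 11.6% fell, the shares against which this and the later list counts are to be read. Elane, neutrophil elastase, was 11.63 on the primary and 10.97 and 11.57 on the secondary L-GMP arrays, against 7.01, 4.44, 5.90 and 4.99 in knockout CMPs. All 3 leukaemic arrays lay far above all 4 CMP arrays, a difference of 5.80 ± 0.50 (adjusted p = 7.91e-07). Ctsg, cathepsin G, was 11.91, 11.92 and 11.94 against 8.47, 7.08, 7.96 and 6.38, and rose by 4.45 ± 0.41. Prtn3, proteinase 3, was 11.41, 10.96 and 11.52 against 6.93 to 8.26 and rose by 3.86 ± 0.42. Ms4a3, a membrane protein of granulocyte-monocyte progenitors, rose by 4.24 ± 0.58, and the serine protease Prss57 by 3.91 ± 0.43. The CMP arrays are the more scattered side here: CMP array 1 was the highest of its group for Elane, Ctsg, Prtn3, Ms4a3 and Prss57.

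The upstream sequence of 4 of these serine protease and peroxidase genes is shown because the C/EBP family is the textbook regulator of this programme. Elane, Prtn3 and Ctsg rose without Cebpa, and Mpo, which was not called, is shown beside them. Each line is the 250 bases before the annotated start of the gene, 5′ to 3′ on the gene's strand, from RefSeq on GRCm38.p6. The windows are chr10:79886062-79886311 (plus strand) for Elane, chr10:79879417-79879666 (plus) for Prtn3, chr14:56102575-56102824 (minus) for Ctsg and chr11:87793534-87793783 (plus) for Mpo. Capitals mark AGGAAGT, the core bound by ETS factors such as PU.1.
Elane: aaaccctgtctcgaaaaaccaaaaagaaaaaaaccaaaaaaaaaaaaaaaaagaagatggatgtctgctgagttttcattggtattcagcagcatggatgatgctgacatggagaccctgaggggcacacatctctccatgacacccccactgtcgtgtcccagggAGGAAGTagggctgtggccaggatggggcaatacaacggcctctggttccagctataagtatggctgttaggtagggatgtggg
Prtn3: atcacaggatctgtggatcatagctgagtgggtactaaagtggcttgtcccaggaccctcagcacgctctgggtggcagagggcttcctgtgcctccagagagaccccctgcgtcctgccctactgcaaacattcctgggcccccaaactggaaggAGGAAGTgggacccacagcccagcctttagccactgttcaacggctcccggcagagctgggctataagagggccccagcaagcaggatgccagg
Ctsg: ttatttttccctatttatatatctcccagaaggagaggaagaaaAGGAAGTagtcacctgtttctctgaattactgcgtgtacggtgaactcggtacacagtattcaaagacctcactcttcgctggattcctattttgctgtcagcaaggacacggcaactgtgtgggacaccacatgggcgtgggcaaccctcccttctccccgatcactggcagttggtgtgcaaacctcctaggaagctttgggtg
Mpo: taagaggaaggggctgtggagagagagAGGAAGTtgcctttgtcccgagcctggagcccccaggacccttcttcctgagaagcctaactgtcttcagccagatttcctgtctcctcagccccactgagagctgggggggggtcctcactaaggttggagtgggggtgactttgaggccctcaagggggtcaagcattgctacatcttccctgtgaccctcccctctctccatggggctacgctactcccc

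The C/EBP motif was searched only in the form TTNNGNAA, read on the other strand as TTNCNNAA, with 0 matches in the 4 windows. This form occurs in 12104 of 32851 such windows of the mouse promoter set (36.8%). Other forms of the motif were not searched, so the 4 windows may still hold a C/EBP site. AGGAAGT, or ACTTCCT on the other strand, begins 84 bases before the start of Elane, 94 before Prtn3, 206 before Ctsg and 223 before Mpo, and occurs in 2525 of the 32851 windows (7.69%). This motif was chosen after the sequences were seen. The arrays carry no binding data, and a match is letters in a window only. Spi1, which encodes PU.1 and was chosen after its values were seen, was 8.60, 8.89 and 9.13 in knockout L-GMPs and 7.92 to 8.40 in knockout CMPs (0.67 ± 0.21, adjusted p = 0.0355). Its call ended on leaving out any of 5 of the 7 arrays (up to adjusted p = 0.169, without secondary L-GMP array 2).

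Not every granule gene moved with Elane. Mpo, myeloperoxidase, was already high without Cebpa: 11.37 to 11.57 in knockout CMPs and 12.14 to 12.29 in knockout L-GMPs, without overlap but with adjusted p = 0.405 in the fit over all arrays (0.0018 in a fit on the 7 arrays alone). Cst7, an inhibitor of cysteine proteases, fell: it was 7.03, 7.07 and 6.35 in L-GMPs and 9.70 to 10.05 in CMPs, a difference of -3.07 ± 0.57. Srgn, the granule proteoglycan, and Nkg7 were above 10 on both sides and differed by 0.26 and 0.19, neither past the threshold.

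Secondary granule and mature neutrophil genes rose for 11 of 20 measured members, and none fell (all genes: 9.17% higher). Hp, haptoglobin, was 10.64, 11.07 and 11.19 in knockout L-GMPs against 5.37, 3.94, 5.14 and 3.87 in knockout CMPs, a rise of 6.39 ± 0.32 close to that of Hpgd (6.38 ± 0.15). Pglyrp1, a bactericidal granule protein, was 11.27, 10.86 and 11.26 against 5.84 to 6.06 and rose by 5.16 ± 0.35. Lcn2, the iron-sequestering lipocalin-2, rose by 3.50 ± 0.46.

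Other genes of this late programme differed between the recipients of the leukaemia. Chil3, a chitinase-like protein of neutrophils and macrophages, was 7.94 on the primary array, 5.37 on secondary array 1 and 9.26 on secondary array 2, against 3.40 to 3.99 in CMPs. The calprotectin genes S100a8 and S100a9, chosen after their values were seen, followed the same order at 7.75, 6.77 and 9.76 and at 8.58, 7.78 and 10.34, and rose by 2.80 ± 0.65 and 3.28 ± 0.71. Camp and Ngp, which mark later neutrophil stages, stood at 7.96 and 7.54 on secondary array 2 and at 4.75 to 5.71 on the other L-GMP arrays, where CMPs were at 4.41 to 5.70. Neither was called (adjusted p = 0.0903 and 0.123). Ltf, Mmp8, Mmp9, Retnlg and Ly6g were at means of 3.1 to 4.3 on both sides. Chil3 was no longer called without secondary array 2 (adjusted p = 0.107), without the primary array, or without CMP array 1 or 2.

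Monocyte and macrophage genes rose for 12 of 18 measured members, with a median difference of 2.35, and 9 rises were called with the L-GMP arrays as 1 sample. Ly86, the partner of a Toll-like receptor homologue, was 10.38, 10.54 and 10.34 against 6.01, 4.83, 5.65 and 4.52, a rise of 5.17 ± 0.38. F13a1, which encodes a fibrin-stabilising transglutaminase made by monocytes, was 10.09, 8.42 and 9.24 against 5.24, 4.51, 4.69 and 4.46 (4.52 ± 0.29). Mpeg1, the pore-forming perforin-2, rose by 3.97 ± 0.32, Ms4a6c by 3.73 ± 0.42 and Emb, a cell adhesion protein, by 3.42 ± 0.33, in each case without overlap. Ms4a6c belongs to a cluster of close copies, so its probe set may share signal with its neighbours. The chemokine receptors Ccr2 and Cx3cr1, the lectin Clec7a, Fcgr1 and Klf4 did not pass.

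Receptors for myeloid cytokines rose for 6 of 13 and fell for 1. Csf1r, the receptor of macrophage colony-stimulating factor, was 6.94, 7.49 and 7.86 in knockout L-GMPs against 5.68, 4.80, 5.04 and 4.88 in knockout CMPs, a difference of 2.33 ± 0.24 (adjusted p = 4.36e-06). Csf2ra, the ligand-binding chain for GM-CSF, was 9.31 to 9.51 against 7.15 to 7.36 and rose by 2.19 ± 0.26. The interleukin-6 receptor chain Il6ra rose by 1.78 ± 0.21, and Csf3r, the receptor for granulocyte colony-stimulating factor, by 0.89 ± 0.16 (chosen after its values were seen). Il6st, the signalling partner of Il6ra, did not follow (0.50 ± 0.38, adjusted p = 0.405). Flt3, a receptor of early progenitors, was 9.09 to 9.79 against 6.02 to 7.13 and rose by 2.61 ± 0.73. Its call ended without secondary L-GMP array 1 (adjusted p = 0.0723), without CMP array 1, and with the replicate number as a block.

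Among 19 transcription factors of the lineage 7 rose and 1 fell. The rises included other members of the C/EBP family. Cebpe, which drives late granulocyte maturation, was 8.15, 7.88 and 7.99 against 5.44 to 5.65 and rose by 2.50 ± 0.21. Cebpd rose by 2.17 ± 0.42, from 5.07 to 5.51 in CMPs to 7.04 to 7.76 in L-GMPs. Cebpb, the member of emergency granulopoiesis and chosen after its values were seen, rose by 0.77 ± 0.20. Cebpg, which lacks an activation domain, was 8.80 to 9.32 in CMPs and 8.23, 7.87 and 7.28 in L-GMPs and fell by 1.22 ± 0.17. The monocyte factor Irf8 rose by 1.15 ± 0.29 and Gfi1 by 0.99 ± 0.18. With the leukaemia counted as 1 sample 3 rises were called and the calls ended on Irf8 (adjusted p = 0.158) and Cebpb (0.171). Without secondary L-GMP array 1 Irf8 had adjusted p = 0.0573 and 4 rises were called.

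All 5 measured subunits of the phagocyte NADPH oxidase, the enzyme of the respiratory burst, rose. Cybb, its catalytic membrane subunit, was 7.82, 8.22 and 8.55 against 3.77 to 4.01 (4.31 ± 0.43). The cytosolic subunits Ncf1 and Ncf4 rose by 2.70 ± 0.23 and 1.73 ± 0.13 and the membrane subunit Cyba by 2.09 ± 0.28. Rac2, its GTPase, rose by 0.66 ± 0.18, a call that ended without secondary L-GMP array 1 or 2 (up to adjusted p = 0.0959). Lysosomal genes rose for 10 of 13 and none fell, with a median of 1.19. Cathepsin H, Ctsh, was 7.58, 8.78 and 9.42 against 4.11 to 4.31 and rose by 4.38 ± 0.25. Ctsz rose by 2.44 ± 0.17, Ctsb by 2.06 ± 0.15 and Ctsl by 1.66 ± 0.29.

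**Figure D1:**
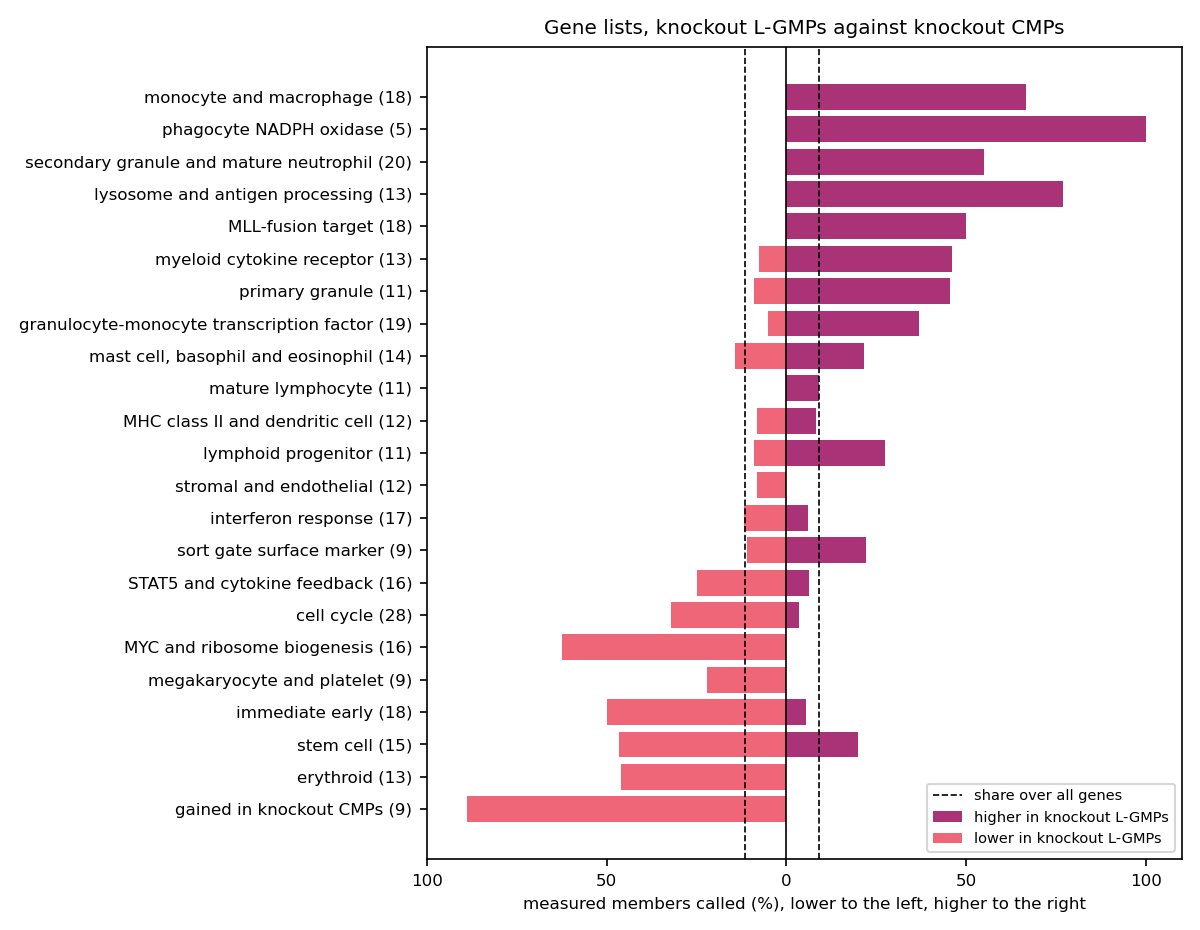
Share of the measured members of each gene list (number in parentheses) that passed limma's test at adjusted p below 0.05, knockout L-GMPs against knockout CMPs, in percent, with lower members drawn to the left of 0 and higher members to the right. The dashed lines mark the shares over all genes, 11.6% lower and 9.17% higher. The NADPH oxidase, lysosome and monocyte lists reach furthest to the right, and the list of genes gained in knockout CMPs furthest to the left.

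To see how far each of these genes stood from its level with Cebpa intact, the 12 largest falls from control to knockout CMPs were followed, a comparison that called 4.91% of genes. They were picked for low values on the knockout CMP arrays, which the comparison with L-GMPs shares, so their levels on the other arrays are the ones to read. Elane averaged 10.43 ± 0.54 (SD, n = 4) in control CMPs, 5.58 ± 1.12 (n = 4) in knockout CMPs and 11.39 ± 0.36 (n = 3) in knockout L-GMPs, and 11.44 ± 0.64 (n = 4) in control L-GMPs. Hp was 8.71 ± 0.44 in control CMPs and 10.97 ± 0.29 in knockout and 11.01 ± 0.43 in control L-GMPs. For Elane the difference between knockout and control L-GMPs was -0.05 ± 0.50 and for Hp -0.05 ± 0.32 (log2 difference ± SE, adjusted p = 0.987 and 0.972), in a comparison that called 4.81% of genes. F13a1 (-0.16 ± 0.29), Ly86 (0.31 ± 0.38), Ctsg (0.21 ± 0.41), Prtn3 (0.24 ± 0.42), Ms4a6c (0.11 ± 0.42), Emb (0.06 ± 0.33), Anxa3 (-0.66 ± 0.32) and Ms4a3 (1.16 ± 0.58) also lay without a call between knockout and control L-GMPs. Anxa3, an annexin of neutrophils, had risen by 3.88 ± 0.32 over knockout CMPs.

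The remaining 2 of the 12 stayed down. Cxcr2, the chemokine receptor of neutrophils, was 7.66 ± 0.22 (SD, n = 4) in control CMPs and 4.33 ± 0.28 (n = 4) in knockout CMPs. It was 5.05, 4.56 and 4.38 in knockout L-GMPs, overlapping the knockout CMPs (0.33 ± 0.19, adjusted p = 0.254), and 4.72 ± 0.34 (n = 4) in control L-GMPs. Met, the receptor of hepatocyte growth factor, averaged 6.88 ± 0.29 over control CMP arrays, against 3.59 ± 0.17 in knockout CMPs, 3.63 ± 0.31 in knockout L-GMPs and 3.81 ± 0.28 in control L-GMPs (knockout L-GMPs against knockout CMPs 0.04 ± 0.20, adjusted p = 0.956). Both genes were thus low in L-GMPs of either genotype. Ccr2 and Il6st, chosen after their values were seen, were also below control CMPs (8.30 ± 0.07 and 7.91 ± 0.26) but did not overlap knockout CMPs. Ccr2 was 7.02, 6.68 and 6.07 in knockout L-GMPs, 5.04 to 5.97 in knockout CMPs (1.09 ± 0.55, adjusted p = 0.184) and 5.61 ± 0.64 in control L-GMPs (knockout minus control 0.98 ± 0.55, adjusted p = 0.314). Il6st was 6.11, 5.97 and 6.58 against 5.32 to 5.90, and 6.23 ± 0.61 in control L-GMPs.

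Csf1r and Irf8 lay between. Csf1r reached 7.43 ± 0.46 (SD, n = 3) in knockout L-GMPs, above knockout CMPs at 5.10 ± 0.40 (n = 4) and below every control CMP array (8.11 to 8.33). Control L-GMPs were at 7.18 ± 0.42 (n = 4), and the knockout minus control difference of 0.25 ± 0.24 (log2 ± SE) was not called. Irf8 reached 6.69 ± 0.27, against 5.54 ± 0.19 in knockout and 8.52 ± 0.14 in control CMPs, and was 7.28 ± 0.86 in control L-GMPs.

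**Figure D2:**
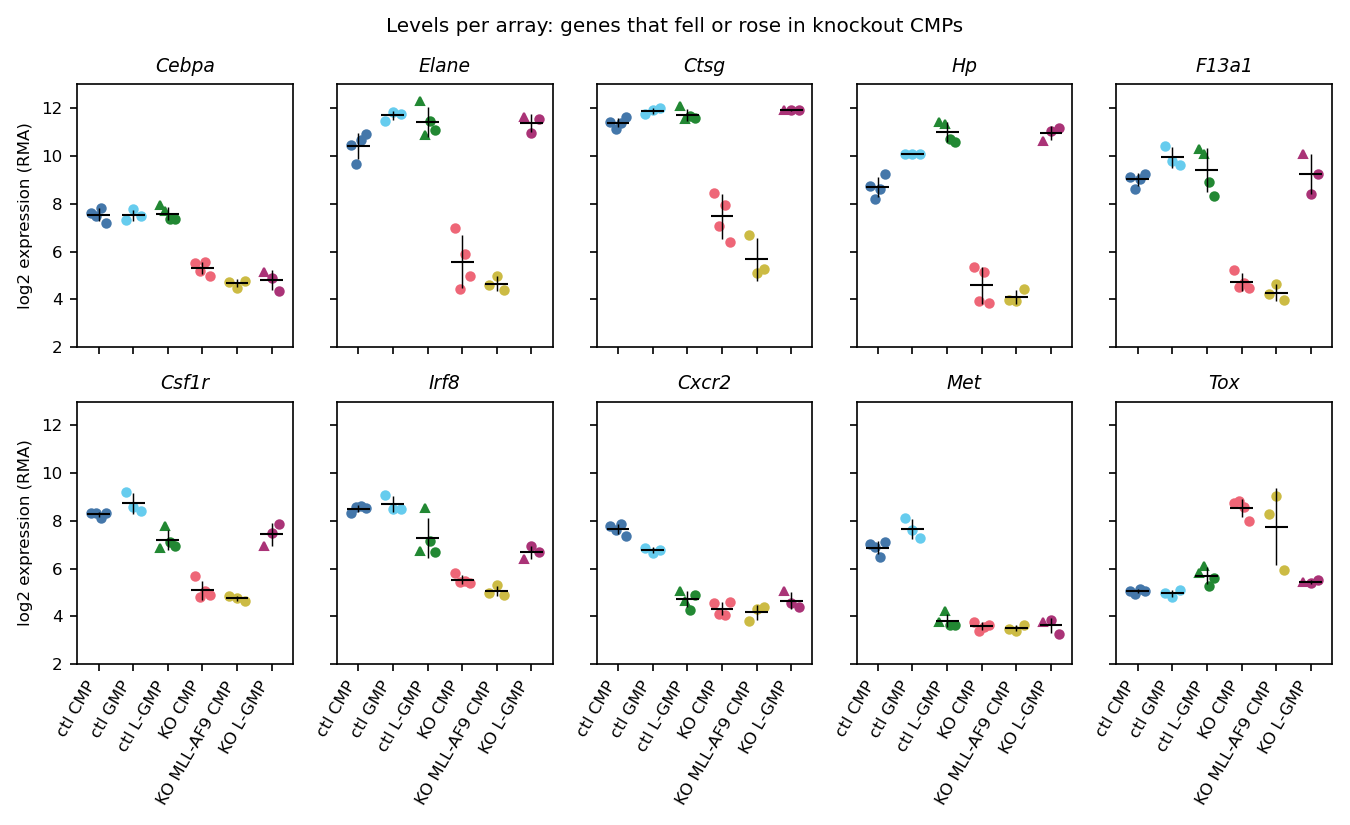
Log2 expression of 10 genes on each array, by group: control (ctl) CMPs, GMPs and L-GMPs, and knockout (KO) CMPs, GFP-positive CMPs of MLL-AF9 mice (KO MLL-AF9 CMP) and L-GMPs. Points are arrays, triangles are L-GMPs of primary recipients, and the lines show the group mean and its SD. Cebpa is low in all knockout groups, Elane, Ctsg, Hp and F13a1 are high in knockout L-GMPs, Csf1r and Irf8 lie between, Cxcr2 and Met are low in L-GMPs of both genotypes, and Tox is high in knockout CMPs.

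Over all 526 genes that were lower in knockout than in control CMPs (2.64% of genes), 26 (4.94%) were lower and 29 (5.51%) higher in knockout than in control L-GMPs, a contrast that shares no array with the first. The median difference was 0.00. Among all genes 1.76% were lower and 3.05% higher in knockout L-GMPs. Of the 453 genes that were higher in knockout CMPs (2.27% of genes), 7 (1.55%) were lower and 58 (12.8%) higher in knockout L-GMPs, with a median of 0.14. The step from CMP to L-GMP was also compared between genotypes, for genes chosen with their levels in these CMPs known. The difference of the 2 steps was 4.80 ± 0.68 for Elane, 4.13 ± 0.40 for F13a1, 3.41 ± 0.32 for Csf1r and -3.75 ± 0.67 for Tox (log2 ± SE). The change from control to knockout CMPs is a term of this difference. For these 4 genes it is therefore a description and supports nothing. Over all genes 708 (3.55%) passed limma's test at an adjusted p below 0.05, 509 higher (2.55%) and 199 lower (0.998%) in the knockout step.

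In GFP-positive CMPs from MLL-AF9 knockout mice some of the genes above were near or below their knockout CMP levels and others were above. Elane was 4.66 ± 0.30 (SD, n = 3) in them, Ctsg 5.68 ± 0.90, Hp 4.10 ± 0.28, F13a1 4.28 ± 0.35 and Csf1r 4.75 ± 0.10, all below the mean of the knockout CMPs. Pglyrp1 and Slpi, at 7.29 ± 0.18 and 7.11 ± 0.57, lay above knockout CMPs (5.96 ± 0.09 and 5.93 ± 0.26) and below knockout L-GMPs (11.13 ± 0.23 and 10.99 ± 0.31). Cyba was 9.38, 8.89 and 9.01 in the GFP-positive CMPs against 7.42 to 7.58 in knockout CMPs, and Prss57 7.07, 6.31 and 6.18 against 5.24 to 5.78. The GFP-positive CMPs carried the same virus and knockout but were sorted as CMPs, and no test was made against them.

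The genes gained in knockout CMPs went the other way. Of 9 such genes 8 fell in knockout L-GMPs and none rose, with a median difference of -2.46. These genes were listed with their gain in the knockout CMP arrays known, so the count is no independent evidence of its direction. Tox, a DNA-binding protein of developing lymphocytes, was 5.42, 5.38 and 5.54 in knockout L-GMPs against 8.76, 8.83, 8.57 and 8.01 in knockout CMPs (-3.09 ± 0.49, adjusted p = 0.000311), near its 4.94 to 5.15 in control CMPs. Phlda1 fell by 3.07 ± 0.25, from 8.72 to 9.29 to 6.85, 5.40 and 5.61. Also lower were the lectin Clec4e (-2.46 ± 0.49), Ctsw, a protease of cytotoxic lymphocytes (-1.66 ± 0.30), Zbtb10 (-1.48 ± 0.21) and Lax1, an adaptor of lymphocyte signalling (-1.06 ± 0.28). Zbtb10 remained above control L-GMPs by 1.06 ± 0.21 (adjusted p = 0.00926). Scin, an actin-severing protein, was 7.28, 8.10 and 6.82 against 9.01 to 9.82 and did not pass (-1.90 ± 0.75, adjusted p = 0.0879). It stayed 2.83 ± 0.75 above control L-GMPs (adjusted p = 0.0417). With the L-GMP arrays as 1 sample the calls on Clec4e and Lax1 ended (adjusted p = 0.0647 and 0.179).

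Ctla2a, a cysteine protease inhibitor first found in T cells, showed the largest fall of the comparison. It was 3.15, 3.20 and 3.16 in knockout L-GMPs, just above the floor, and 10.83, 10.61, 10.77 and 10.73 in knockout CMPs, a difference of -7.57 ± 0.28. Ctla2b, its near-identical copy, was 4.28, 4.26 and 4.40 against 9.27, 8.93, 8.88 and 8.88 (-4.68 ± 0.42). Their probe sets may share signal, so they are not separate observations. Control CMPs held Ctla2a at 8.84 ± 0.13 (SD, n = 4), GMPs at 6.06 ± 0.35 (n = 3) and control L-GMPs at 3.70 ± 1.08 (n = 4), so it was lower in L-GMPs of either genotype.

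**Figure D3:**
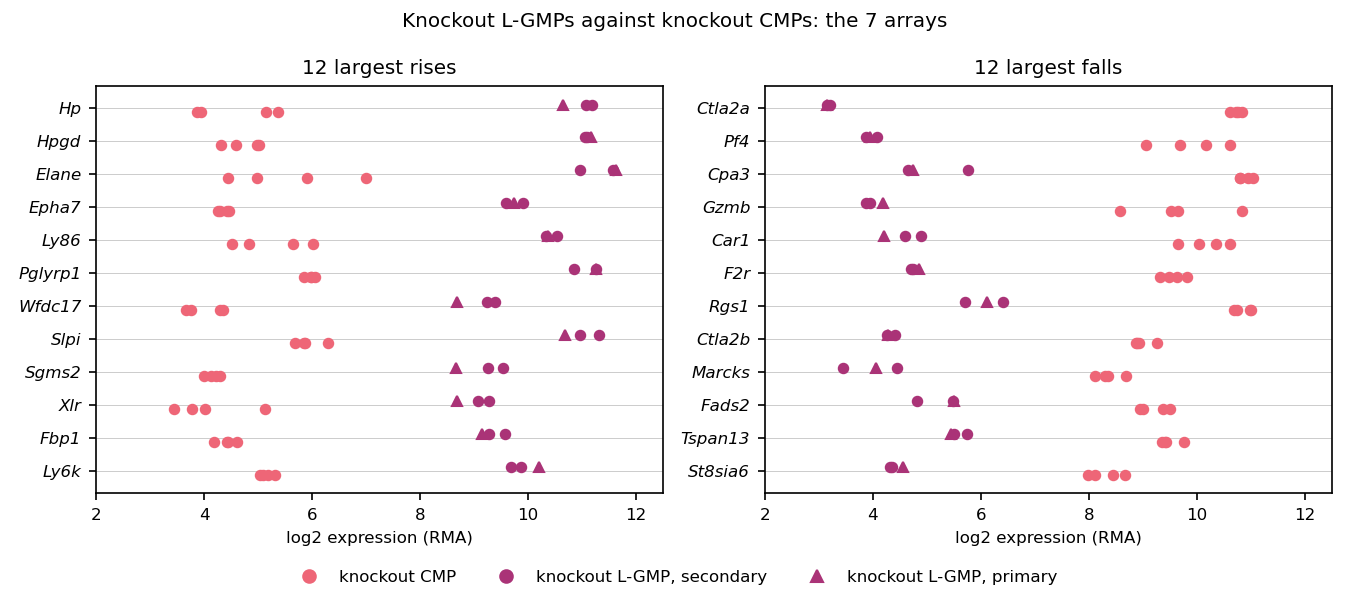
Log2 expression of the 12 largest rises (left) and 12 largest falls (right) in knockout L-GMPs against knockout CMPs, 1 point per array, with the primary L-GMP array as a triangle. The arrays of the sides do not overlap for these genes, which was a condition of the choice, and the CMP arrays are widest apart for Elane and Gzmb.

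Some of the other large rises had no counterpart among the called changes from control CMPs to control GMPs. Hpgd, which degrades prostaglandins, was 11.17, 11.10 and 11.05 against 4.31 to 5.01 in knockout CMPs (6.38 ± 0.15). Control CMPs held it at 4.60 ± 0.15 (SD, n = 4), GMPs at 4.51 ± 0.16 (n = 3) and control L-GMPs at 11.63 ± 0.11 (n = 4). Epha7, an ephrin receptor, was 9.75, 9.60 and 9.90 against 4.27 to 4.47 (5.39 ± 0.45), and between 5.47 and 9.29 in control L-GMPs. Control CMPs and GMPs differed by -0.09 for both. As both genes were chosen for the size of the knockout step, no test of that step against the normal one is given for them. Slpi, an inhibitor of leukocyte elastase, rose by 5.06 ± 0.45, the whey acidic protein domain gene Wfdc17 by 5.08 ± 0.43, and the surface protein gene Ly6k by 4.76 ± 0.83. Sgms2, which makes sphingomyelin, rose by 4.99 ± 0.34 and, unlike these, also rose from control CMPs to control GMPs (3.17, adjusted p = 0.000208).

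Other rises separated the knockout leukaemia from the control leukaemias. Xlr, an X-linked lymphocyte-regulated gene, was 8.69, 9.07 and 9.27 in knockout L-GMPs, 3.45 to 5.13 in knockout CMPs and 3.00 to 7.56 in control L-GMPs, and exceeded the latter by 4.28 ± 0.56 (adjusted p = 0.000301). Fbp1, a gluconeogenic enzyme, was 9.14, 9.27 and 9.57 against 4.18 to 4.62 and 2.22 ± 0.31 above control L-GMPs. Mecom, a zinc finger oncogene of stem cells also called Evi1, was 8.14, 8.76 and 9.60 in knockout L-GMPs against 4.13 to 4.29 in knockout CMPs and 3.93 to 5.36 in control L-GMPs. It rose by 4.61 ± 0.95 over CMPs and stood 4.46 ± 0.95 above control L-GMPs (adjusted p = 0.0133). With the knockout leukaemia as 1 sample the rise of Mecom had adjusted p = 0.0731. Among GFP-positive CMPs of MLL-AF9 knockout mice Mecom was 3.65, 7.95 and 8.60, so its high levels were not confined to the L-GMPs. Xlr (3.00 to 3.26) and Fbp1 (4.55 to 4.90) were low in those CMPs. The knockout L-GMP values belong to 1 leukaemia, whose primary recipient also had the cytokine vectors.

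Of the 15 stem cell genes measured 7 fell, 5 did not pass and 3 rose, Mecom with the homeobox genes Hoxb5 (2.11 ± 0.27) and Hoxb4 (1.28 ± 0.23). Angpt1, the ligand of the receptor Tek, was 6.58, 7.76 and 5.98 against 10.33 to 10.63 and fell by 3.69 ± 0.38. The factors Gfi1b (-1.95 ± 0.31), Gata2 (-1.92 ± 0.46) and Mycn (-1.70 ± 0.21) fell as well. Hoxb5 and Hoxb4 were also above control L-GMPs, by 2.32 ± 0.27 and 1.46 ± 0.23 (adjusted p = 0.000119 and 0.0015). With the leukaemia counted as 1 sample 4 falls were called, and the call ended on Gata2 (adjusted p = 0.138), which also ended with high Xist as a covariate.

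Targets of MLL fusions rose for 9 of 18 (50%, all genes: 9.17%) and none fell, with a median of 0.93. Igf2bp3, an RNA-binding protein of fetal tissue, was 8.54, 8.68 and 8.75 against 4.74 to 4.99 and rose by 3.80 ± 0.27. The homeobox genes Hoxa5 and Hoxa9 rose by 1.93 ± 0.47 and 1.85 ± 0.45, Hoxa9 from 5.61 to 6.10 in CMPs to 7.40, 7.89 and 7.91. Eya1, a transcriptional cofactor and phosphatase, was 9.32 to 9.69 against 6.91 to 7.09 (2.47 ± 0.80, adjusted p = 0.038). In GFP-positive CMPs of MLL-AF9 knockout mice Eya1 was 4.59, 8.99 and 8.86, Hoxa9 5.09, 7.46 and 6.93, and Hoxa5 4.36, 5.99 and 5.98. Igf2bp3 was 4.91, 5.02 and 4.96 there. Meis1, the partner of HOXA9 and chosen after its values were seen, was 9.33 to 9.83 against 8.55 to 9.00 without a call (0.75 ± 0.83, adjusted p = 0.589, and 0.0109 in a fit on the 7 arrays alone). With the leukaemia as 1 sample 3 rises were called, and the calls on Hoxa5 (adjusted p = 0.141), Hoxa9 (0.137) and Eya1 (0.303) ended. Eya1 lost its call with any of the 7 arrays left out (up to adjusted p = 0.111, without secondary L-GMP array 2).

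Of 13 measured erythroid genes 6 fell and none rose (median -1.40), and of 9 megakaryocyte genes 2 fell and none rose (median -0.58). Car1, a carbonic anhydrase of red cell precursors, was 4.20, 4.88 and 4.59 against 9.65 to 10.61 and fell by 5.60 ± 0.74. Also lower were the urea transporter Slc14a1 (-3.83 ± 0.43), the water channel Aqp1 (-2.51 ± 0.52) and the erythroid factor Gata1 (-2.54 ± 0.30). Pf4, platelet factor 4, was 3.95, 3.87 and 4.08 against 9.05 to 10.61 (-5.91 ± 0.68), and the platelet integrin Itga2b fell by 2.25 ± 0.45. The mean log2 level of the erythroid list was 5.64 to 5.72 on the L-GMP arrays and 7.10 to 7.64 on the CMP arrays, and that of the megakaryocyte list 5.32 to 5.43 and 6.57 to 7.26. The CMP gate holds cells of these lineages and the GMP gate does not, and the part of the gate in these falls was not tested. With the leukaemia as 1 sample 3 erythroid falls and 1 megakaryocyte fall were called, and the calls ended on Aqp1 (adjusted p = 0.0709) and Itga2b (0.063).

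Car2, another carbonic anhydrase of the erythroid list, chosen after its values were seen, did not follow Car1. It was 9.88, 9.91 and 9.99 in knockout L-GMPs and 9.67 to 10.04 in knockout CMPs (0.11 ± 0.45, adjusted p = 0.92), but 6.08 ± 0.29 (SD, n = 3) in control GMPs and 5.71 ± 0.42 (n = 4) in control L-GMPs. Knockout L-GMPs exceeded control L-GMPs by 4.22 ± 0.45 (log2 ± SE, adjusted p = 6.29e-05).

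Of 14 mast cell, basophil and eosinophil genes 3 rose, 2 fell and 9 did not pass (all genes: 9.17% higher and 11.6% lower). Cpa3, the mast cell carboxypeptidase, was 4.75, 5.75 and 4.65 in knockout L-GMPs against 10.79 to 11.03 in knockout CMPs (-5.84 ± 0.75), while control L-GMPs were at 8.65 to 10.61, 4.67 ± 0.75 above the knockout (adjusted p = 0.00179). Gzmb, granzyme B, was 4.18, 3.87 and 3.94 against 10.82, 9.66, 9.52 and 8.58 and fell by 5.65 ± 0.97. The rises were of Prg2 and Prg3, eosinophil granule proteins (2.16 ± 0.44 and 1.35 ± 0.37), and the basophil protease Mcpt8 (3.58 ± 1.19). The 3 rises were not called with the leukaemia as 1 sample (adjusted p = 0.074, 0.194 and 0.32). Without secondary L-GMP array 1 only Prg2 was called, and Mcpt8 lost its call on leaving out any of 6 of the 7 arrays.

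Markers of lymphoid and supporting cells spanned a wide range of levels. In the mature lymphocyte list the median of the gene means was 4.72 in knockout L-GMPs and 4.84 in knockout CMPs. The highest means there were 10.56 and 10.37. For the stromal and endothelial list the medians were 5.03 and 5.14, and the highest means 9.27 and 8.68. As levels cannot be compared between genes, these are no measure of cell content. Of 11 mature lymphocyte genes only Cd79b, a B cell receptor chain, was called, at 8.76 to 9.00 against 6.82 to 7.28 (1.92 ± 0.19). That rise is 9.09% of the list, near the 9.17% of all genes. Cd3e, Cd3g, Cd79a and Ms4a1 had means of 3.2 to 5.4. Of 12 stromal and endothelial genes only Pdgfrb was called (-2.48 ± 0.38), 8.33% of the list against 11.6% of all genes. Cxcl12, Lepr, Cdh5 and Kdr had means of 3.0 to 4.4. The mean level of the lymphocyte list was 5.42 to 5.63 on the L-GMP and 5.33 to 5.48 on the CMP arrays, and that of the stromal list 5.11 to 5.23 and 5.25 to 5.37. Of 11 lymphoid progenitor genes 9.09% fell and 27.3% rose (all genes: 11.6% and 9.17%). Dntt, the DNA polymerase of antigen receptor joints, was 3.91, 3.98 and 4.24 against 6.92 to 8.46 and fell by 3.66 ± 0.94, and Flt3, Lsp1 (1.52 ± 0.37) and Notch1 (0.95 ± 0.30) rose. None of these 4 was called with the leukaemia as 1 sample (adjusted p = 0.139 to 0.294). Without secondary L-GMP array 1 or without CMP array 1, 1 rise was called. Of 12 antigen presentation and dendritic cell genes 1 was called in each direction, 8.33% each against 9.17% higher and 11.6% lower over all genes: H2-Ab1 lower (-1.11 ± 0.30, adjusted p = 0.101 without secondary L-GMP array 2) and Tcf4 higher (1.20 ± 0.41, a call that ended on leaving out any of 6 of the 7 arrays).

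The remaining genes of the 12 largest falls belong to no list. F2r, the thrombin receptor, was 4.86, 4.71 and 4.74 against 9.31 to 9.81 (-4.79 ± 0.39). Rgs1, a brake on G protein signalling, was 6.11, 6.41 and 5.71 against 10.69 to 11.00 (-4.77 ± 0.48), and Marcks, a protein kinase C substrate, 4.06, 4.45 and 3.45 against 8.12 to 8.69 (-4.38 ± 0.33). The fatty acid desaturase Fads2 (-3.93 ± 0.28), the tetraspanin Tspan13 (-3.93 ± 0.26) and the sialyltransferase St8sia6 (-3.88 ± 0.49) fell too. F2r, Marcks and St8sia6 were also higher in knockout than in control CMPs, by 1.71, 1.39 and 1.78 (adjusted p = 0.00999, 0.0136 and 0.0331).

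Immediate early genes, which cells switch on within minutes of a stimulus, fell for 9 of 18 and rose for 1. Egr1, a zinc finger factor, was 8.15, 7.47 and 7.11 in knockout L-GMPs against 11.28 to 11.59 in knockout CMPs (-3.82 ± 0.23). Jun (-2.27 ± 0.24), Klf6 (-1.91 ± 0.44) and Btg2 (-1.84 ± 0.20) fell too. Klf2 rose by 1.17 ± 0.36, a call that ended on leaving out any of 6 of the 7 arrays. With the leukaemia as 1 sample 4 falls were called, and the call ended on Klf6 (adjusted p = 0.119). In knockout CMPs 7 of these 18 genes had been higher than in control CMPs (all genes in that comparison: 2.27% higher), on the same CMP arrays. Of 16 genes of STAT5 and cytokine feedback 4 fell (25%, all genes: 11.6%) and 1 rose (6.25%, all genes: 9.17%). The falls were of Dusp6 (-2.24 ± 0.29) and Spred1 (-2.19 ± 0.28), both brakes on MAP kinase signalling, Ccnd2 (-0.88 ± 0.16) and Mcl1, an inhibitor of apoptosis (-0.43 ± 0.10). Id1 rose by 0.59 ± 0.20 (adjusted p = 0.0496) and lost its call with any of the 7 arrays left out. Mcl1 lost its call with the leukaemia as 1 sample (adjusted p = 0.134).

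Of 16 genes of MYC and ribosome biogenesis 10 fell and none rose (median -0.55; all genes: 11.6% lower), among them Myc at 9.80, 9.37 and 9.47 against 10.56 to 10.82 (-1.19 ± 0.24), Nop58 (-1.12 ± 0.25), Polr1b (-0.90 ± 0.16) and Nop56 (-0.89 ± 0.22). Of 28 cell cycle genes 9 fell and 1 rose (median -0.44). Mki67, the proliferation antigen, was 9.13, 8.53 and 8.31 against 9.52 to 9.78 and fell by 1.01 ± 0.24. Top2a (-0.92 ± 0.18) and Mcm7 (-0.76 ± 0.22), needed for DNA replication, fell too. Cdkn2c, an inhibitor of the kinases that start the cycle, was 9.10, 9.52 and 9.52 against 6.51 to 6.75 and rose by 2.71 ± 0.56. The primary array was the highest of the leukaemia for Mki67 and Top2a. Without it 14 cell cycle falls were called, without secondary array 2 there were 3, without secondary array 1 or CMP array 4 there were 5, and with the replicate number as a block 5. Mki67 and Mcm7 had adjusted p = 0.0617 and 0.118 without secondary array 2. With the leukaemia as 1 sample 3 cell cycle and 2 ribosome biogenesis falls were called.

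Of 17 interferon response genes 2 fell, Rtp4 (-2.07 ± 0.47) and the deubiquitinating enzyme Usp18 (-0.96 ± 0.27), and 1 rose, Oas1a (0.92 ± 0.23), shares near those of all genes. The mean level of the list was 5.48 to 5.87 on the L-GMP and 5.63 to 6.11 on the CMP arrays, which came 5 days after poly I:C, an inducer of interferon. None of the 3 was called with the leukaemia as 1 sample (adjusted p = 0.104, 0.177 and 0.146). Without secondary L-GMP array 2 or without CMP array 1 the call on Usp18 ended.

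The step was last set against normal maturation, which was measured on other arrays. From control CMPs to control GMPs 143 genes rose (0.717%) and 66 fell (0.331%), 1.05% of genes in all. Of the 143, 109 (76.2%, against 9.17% of all genes) were also higher in knockout L-GMPs than in knockout CMPs. They make up 5.96% of the 1828 genes higher there. Of the 66, 54 (81.8%, against 11.6% of all genes) were also lower, 2.34% of the 2309. In the opposite direction were 1 of the 143 and 2 of the 66. Across the 19937 genes the log2 differences of the 2 steps correlated at 0.579 (Pearson) and 0.431 (Spearman), a description in which genes are not independent and arrays within a step are shared by all genes. The difference between the steps passed for 767 genes (3.85%), 377 higher (1.89%) and 390 lower (1.96%) in the knockout step. For Elane the knockout step was 5.80 and the normal step 1.27, and for Csf1r 2.33 and 0.47, from knockout CMPs that started lower than control CMPs.

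**Figure D4:**
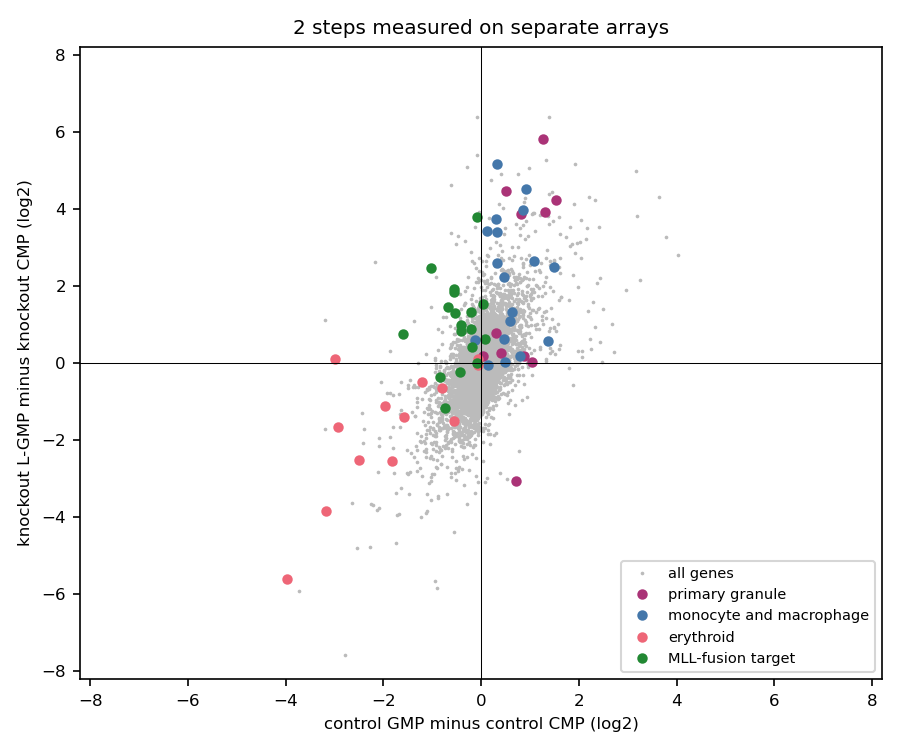
Log2 difference of each gene from control CMPs to control GMPs (horizontal) and from knockout CMPs to knockout L-GMPs (vertical), with 4 lists in colour and all other genes in grey. Elane lies at 1.27 on the horizontal and 5.80 on the vertical axis, Car1 at -3.98 and -5.60, Car2 near 0 on the vertical axis at 0.11, and Igf2bp3 near 0 on the horizontal axis at -0.08.

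Set against the step from control CMPs to control L-GMPs, again on other arrays, 834 of the 1828 higher genes (45.6%) were higher there too, 26.8% of its 3107, and 1516 of the 2309 lower genes (65.7%) were lower, 39.4% of its 3844. In opposite directions were 56 and 10 genes. The control step called 6951 genes (34.9%), with 15.6% of all genes higher and 19.3% lower. The log2 differences of the knockout and control steps correlated at 0.649 (Pearson) and 0.650 (Spearman) over 19937 genes.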

How the data were processed

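RNA of sorted mouse cells, amplified with the NuGen Ovation Pico WTA V2 kit per the labels, was measured on 23 arrays. The authors deposited log2 values computed with RMA, per the submitters' processing notes (version not given in the sources used here). The deposited table holds 34760 probe sets with a floor of 3, and its probes' signal over background is not given. Of the probe sets 21640 carried 1 gene symbol, 1321 several and 11799 none listed in the platform annotation. Those with 1 symbol gave 19937 genes, 954 of them from several probe sets, of which 1 was kept by the highest mean.

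Limma 3.58.1 in R 4.3.3 was fitted to the means of 9 groups over all 23 arrays (14 residual degrees of freedom, moderated with a trend), and the contrast gave the 3 L-GMP arrays equal weight. Benjamini-Hochberg adjusted p-values run over 19937 genes, and a gene below 0.05 is called. The fit was tested on simulated data. The number of arrays limits the precision. No pair of the 23 arrays held near-identical values.

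Genes named are Cebpa, Elane, F13a1, Csf1r and Tox, the 12 largest called rises and falls without overlap, the 12 largest falls and 8 largest rises from control to knockout CMPs, and up to 4 called members per list and direction. Predicted genes, small RNAs, olfactory, antigen receptor and sex-linked dosage genes were not named. The genes and the 23 lists (327 of 357 entries measured) were chosen with earlier results of these data known. Gene symbols were matched to RefSeq on GRCm38.p6 for 21553 of the 21640 probe sets. Alternatives covered weighting, arrays left out, covariates, normalization and filters.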

Additional observations from a re-analysis of the deposited data

Results flagged for a closer look

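Among the 28 marker genes and largest changes, 18 had a step from CMP to L-GMP that differed between knockout and control cells by a direct limma test at an adjusted p below 0.05. The knockout step exceeded the control step by 4.80 for Elane, 4.36 for Ly86, 4.13 for F13a1, 4.08 for Hp, 3.97 for Xlr, 3.63 for Wfdc17, 3.41 for Csf1r, 3.34 for Fbp1, 3.12 for Pglyrp1, 2.97 for Epha7, 2.90 for Slpi and 2.02 for Sgms2 on the log2 scale. The difference was -5.87 for Cpa3, -3.75 for Tox, -2.85 for Ctla2b, -2.43 for Ctla2a, -2.24 for F2r and -2.03 for Marcks. Over all genes 708 (3.55%) passed the same test. Of the 28 genes 24 were chosen for a large knockout step, which is a term of the difference tested, and the other markers with their CMP levels known, so the number that passed is a description and supports nothing. In the 4 knockout CMP arrays Ctla2b was 9.27 on array 1 and 8.93, 8.88 and 8.88 on the others. The gap from array 1 to its neighbour is 0.858 of the group's range, above the critical value of Dixon's outlier test. Chance flags about 1 in 20 groups, and this was 1 of 28.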

How the results depend on the processing

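The main comparison called 4137 genes (1828 higher, 2309 lower). The counts were 1293 (625 and 668) with the 3 L-GMP arrays averaged into 1 sample, 1418 (643 and 775) with the primary L-GMP array only, 2569 (1172 and 1397) with high Xist as a covariate, 7041 (3365 and 3676) on the 7 arrays alone and 7385 (3430 and 3955) with array weights. Leaving out 1 array gave 2808 to 3492 genes, 1272 to 1590 higher and 1536 to 1902 lower. The fit with the replicate number as a block called 3006 genes, and 11 of the 114 named calls ended: Chil3, Flt3, Tcf4, H2-Ab1, Mcpt8, Notch1, Mcm7, Usp18, Id1, Spi1 and Rac2. Whether replicate numbers pair the samples could not be settled. Deviations of the 2 same-numbered pairs of secondary L-GMP and CMP arrays correlated at -0.060 and -0.006. With 2 secondary arrays the deviations of 1 are the negative of the other, so these values cannot exclude a pairing. Centring each array on its median shifted all differences by 0.037 and called 4118 genes, 50.3% of them higher against 44.2% before. High Xist as a covariate ended 19 of the 114 named calls: Flt3, Kit, Irf8, Tcf4, H2-Ab1, Eya1, Gata2, Mcpt8, Prg3, Lsp1, Notch1, Mcm7, Nop58, Oas1a, Id1, Mcl1, Klf6, Spi1 and Cebpb. No named call reversed under any alternative run. Averaging ended 37 of the 114 calls. In the other comparisons array weights called 3762 genes between knockout and control CMPs (979 before), 1257 between control GMPs and CMPs (209), 1440 for the difference between the knockout and control steps (708) and 3584 for that between the knockout step and the normal one (767), and the replicate block called 608 between knockout and control L-GMPs (959). The cause of these changes was not tested. Values near the floor of 3 limit the falls of Ctla2a.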
